A study of Sus scrofa with 12 samples.

Results

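The genes described here are repressors and output factors of the circadian clock, measured in the longissimus dorsi, a large back muscle, of Laiwu and Yorkshire pigs. They were chosen by name from a list of 10 clock genes, and the 9 present in the deposited table of 23271 genes were PER1, PER2, CRY1, CRY2, NR1D1, NR1D2, DBP, CLOCK and BHLHE40. PER3 was not analysed here. Poly(A) RNA was sequenced in 6 libraries of the Laiwu, a local pig of China with fatty muscle, and in 6 libraries of the Yorkshire, a lean breed raised for meat. All pigs are described as equal in weight, and no treatment or engineered allele is named in either breed. The sources used here do not give age, feeding state or the time of day at which muscle was taken.

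As background, the clock is a feedback loop of transcription that runs in most cells. CLOCK, or its relative NPAS2, pairs with BMAL1 (ARNTL in the deposited table) and switches on the PER and CRY genes, whose proteins return to the nucleus and hold the pair back. The same pair switches on NR1D1 and NR1D2, the nuclear receptors REV-ERB alpha and beta, which repress ARNTL, and DBP, which carries the rhythm to other genes. In rodent skeletal muscle these transcripts are known to swing over the day, PER, NR1D1 and DBP broadly opposite to ARNTL. PER1 is also known to respond quickly to glucocorticoid hormones and to other acute signals.

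Libraries held 54961358 to 67285809 counts, and a clock gene was covered by 160 counts (DBP in a Yorkshire library) to 22891 counts (PER1 in a Laiwu library). The 6 of 7 skeletal muscle markers present in the table, among them ACTA1 and CKM, summed to between 57024.4 and 78759.5 FPKM in Laiwu, against 57871.7 to 79363.3 FPKM in Yorkshire; FPKM divides a count by the length of its gene and the size of its library. The 5 adipocyte markers summed to 28.6 to 156 FPKM in Laiwu, against 20.1 to 57.5 FPKM in Yorkshire, and their part in the clock genes' levels was not tested. Yorkshire 5 stood apart, with long genes low: Spearman's rho between a gene's length and its deviation there was -0.457, and in the other 11 libraries it was -0.132 to 0.207 (11126 genes, which are not independent replicates). In whole muscle, fewer cells of a type and less RNA per cell cannot be told apart.

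NR1D2, BHLHE40 and PER1 were the most abundant of the 9 transcripts and PER2 the least. Over the 12 libraries the means were 49.7 ± 11.1 FPKM for NR1D2, 44.4 ± 12 for BHLHE40, 43.5 ± 16.8 for PER1, 22.4 ± 6.72 for NR1D1, 19.2 ± 5.25 for CRY2, 6.34 ± 1.82 for CLOCK, 5.76 ± 3.34 for DBP, 3.51 ± 0.706 for CRY1 and 2.25 ± 1.42 for PER2 (SD, n = 12). CRY2 lay above CLOCK in 12 of 12 libraries, so the genes from NR1D2 to CRY2 form an abundant set and those from CLOCK to PER2 a scarce set. Inside the abundant set, PER1 lay above NR1D1 in 11 of 12. Within those sets several neighbours changed places: NR1D2 exceeded BHLHE40 in 8 libraries, BHLHE40 exceeded PER1 in 5, NR1D1 exceeded CRY2 in 8 and CLOCK exceeded DBP in 5.

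The period genes encode the PER side of the repressor complex and differed widely in level. PER1 (ENSSSCG00000017983; Sscrofa11.1 chromosome 12, 53361889 to 53374248) had a lowest, median and highest value of 24.4, 43.1 and 79.3 FPKM in Laiwu, and 23.5, 40.1 and 57.3 FPKM in Yorkshire. It was highest in Laiwu 6 and Laiwu 1 and lowest in Yorkshire 4 and Laiwu 2. PER2 (ENSSSCG00000016338; chromosome 15, 137795533 to 137834783) had 0.777, 2.10 and 4.68 FPKM in Laiwu, and 0.427, 2.23 and 4.02 FPKM in Yorkshire. Its lowest libraries were Yorkshire 5, Yorkshire 3 and Laiwu 5 and its highest Laiwu 4 and Yorkshire 2, and the breeds overlapped almost fully. The ratio of PER1 to PER2 in FPKM was lowest in Laiwu 4 (7.84) and highest in Laiwu 5 (63.8) among Laiwu libraries, against 8.59 in Yorkshire 2 and 107 in Yorkshire 5 among Yorkshire libraries.

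The cryptochromes, which bind PER proteins and block CLOCK and BMAL1 directly, varied less. CRY1 (ENSSSCG00000000164; chromosome 5, 13275545 to 13364593) had a lowest, median and highest value of 3.10, 3.87 and 4.38 FPKM in Laiwu, and 2.21, 3.04 and 4.36 FPKM in Yorkshire. The highest libraries of both breeds were level, and the lowest was Yorkshire 2. CRY2 (ENSSSCG00000013270; chromosome 2, 16587109 to 16620385) had 13.9, 19.7 and 28.2 FPKM in Laiwu, and 13.1, 17.3 and 29.1 FPKM in Yorkshire, so each breed held a library near the top and others near the bottom. CRY2 exceeded CRY1 by 3.17 to 9.07 times in Laiwu and by 3.10 to 10.5 times in Yorkshire.

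The REV-ERB genes repress ARNTL through elements that the activating ROR receptors also bind. NR1D1 (ENSSSCG00000036933; chromosome 12, 22263657 to 22271643, plus strand) had a lowest, median and highest value of 17.3, 20.2 and 35.8 FPKM in Laiwu, and 14.8, 21.7 and 35.1 FPKM in Yorkshire. Laiwu 4 and Yorkshire 2 were the highest, and the other 10 libraries lay between 14.8 and 23.5 FPKM. NR1D1 overlaps THRA, the thyroid hormone receptor alpha gene on the minus strand, by 1134 bases. The kit marks strand but the counting is not stated to use it, so reads of the shared stretch may not be told apart; the level of THRA was 16.1 ± 1.62 FPKM in Laiwu, against 16.7 ± 1.85 FPKM in Yorkshire (SD, n = 6 each). NR1D2 (ENSSSCG00000027017; chromosome 13, 10756926 to 10791210) had 45.3, 55.1 and 67.5 FPKM in Laiwu, and 27.9, 44.4 and 59.0 FPKM in Yorkshire. Its 3 lowest libraries were Yorkshire 5, 3 and 6 and its highest was Laiwu 6, and the breeds shared the stretch from 45.3 to 59.0 FPKM. NR1D2 exceeded NR1D1 in every library, by 1.72 to 2.87 times in Laiwu and by 1.34 to 2.57 times in Yorkshire.

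BHLHE40, also known as DEC1, competes with CLOCK and BMAL1 for their binding sites. BHLHE40 (ENSSSCG00000036136; chromosome 13, 61526116 to 61533674) had a lowest, median and highest value of 33.8, 38.7 and 70.2 FPKM in Laiwu, and 33.3, 46.0 and 65.5 FPKM in Yorkshire. Laiwu 4 and Yorkshire 2 were the highest here too, and the other 10 libraries lay between 33.3 and 47.5 FPKM. The 5 macrophage markers, none of them at 0 throughout, summed to 11.2 to 34.9 FPKM in Laiwu, highest in Laiwu 4, and to 11.3 to 29.7 FPKM in Yorkshire, where Yorkshire 2 had 18.5 FPKM and Yorkshire 3 was highest. In Laiwu 4, C1QC and C1QA made up 17.3 and 10.6 FPKM of that sum. The other 3 markers, CD68, CD163 and CSF1R, were at 2.68, 1.39 and 2.89 FPKM in Laiwu 4, against 4.23, 5.35 and 4.16 FPKM in Yorkshire 3. The part of macrophages in the BHLHE40 level was not tested.

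CLOCK, the activator in the set, was at 4.47, 6.33 and 8.28 FPKM in Laiwu (lowest, median and highest), and at 1.9, 6.55 and 8.25 FPKM in Yorkshire (ENSSSCG00000008909; chromosome 8, 54793342 to 54877777). The single low value, 1.9 FPKM, belonged to Yorkshire 5, the library with the length trend. At 5733 bases, taken from count over FPKM, CLOCK is among the longer genes here. PER2 (6938 bases) and NR1D2 (5367 bases) were also lowest in Yorkshire 5, at 0.427 and 27.9 FPKM. BHLHE40 (3262 bases), a shorter gene, was lowest there too, at 33.3 FPKM. PER1 (5222 bases) had 45.6 FPKM there, above its Yorkshire median of 40.1 FPKM. The part of the length trend in these values was not tested. DBP, a PAR bZIP transcription factor and a direct output of the clock (ENSSSCG00000003148; chromosome 6, 53986959 to 53993020), had 1.41, 5.64 and 10.4 FPKM in Laiwu, and 1.47, 6.53 and 9.18 FPKM in Yorkshire. Each breed held libraries at both ends of that range, with Laiwu 5 and Yorkshire 3 at the bottom and Laiwu 6 and Yorkshire 2 at the top.

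**Figure D1:**
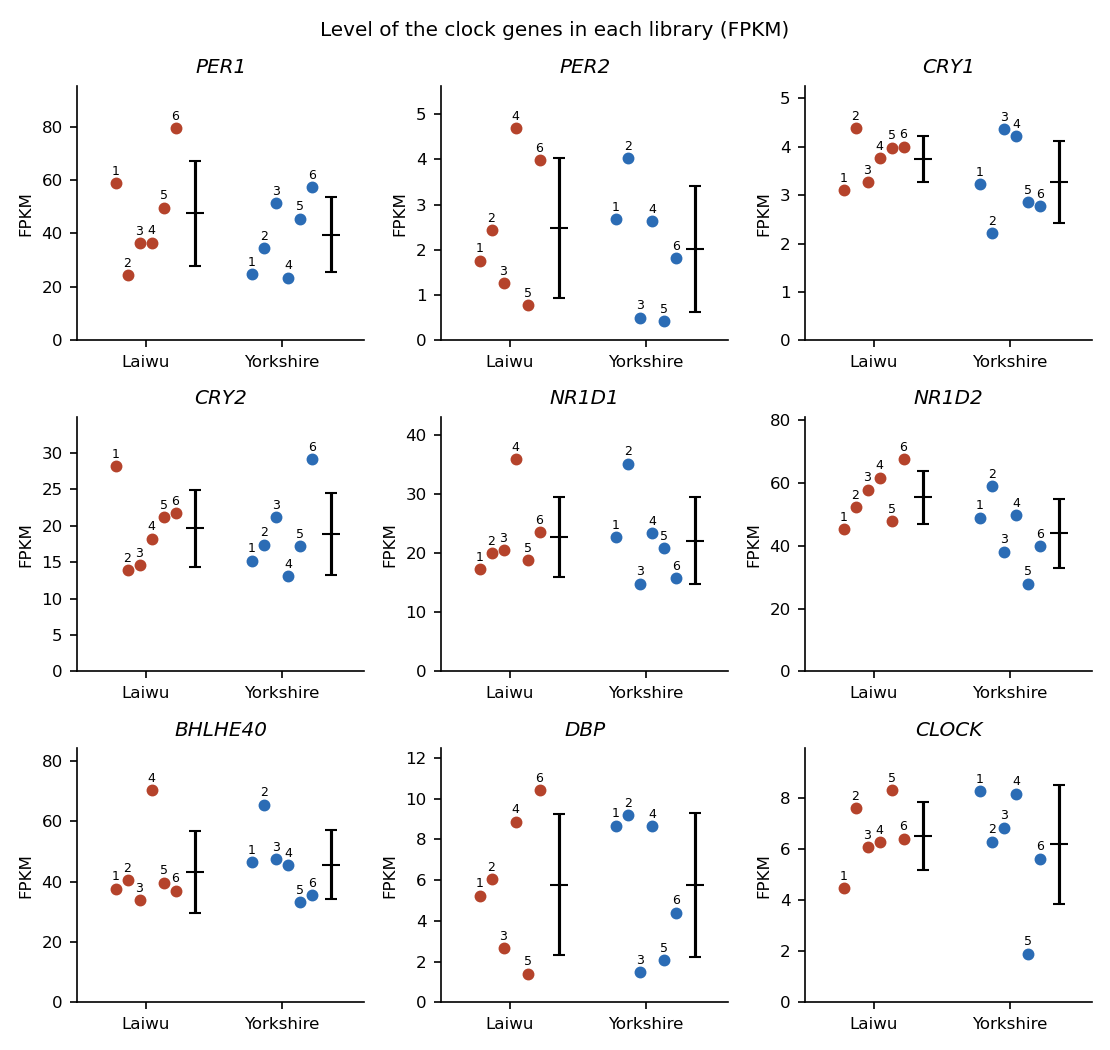
FPKM of each clock gene (vertical axes, from 0) in the 6 Laiwu and 6 Yorkshire libraries, numbered by replicate, with the mean and SD of each breed as bars. The breeds overlap for all 9 genes, and PER2 spans 0.777 to 4.68 FPKM in Laiwu, against 0.427 to 4.02 FPKM in Yorkshire.

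The first comparison asked whether the clock genes differ in level between Laiwu and Yorkshire muscle. None of the 9 did at an adjusted p under 0.05 (edgeR's quasi-likelihood test, Benjamini-Hochberg over 11205 genes tested): 0 were called higher and 0 lower, against 0 of 11205 genes, or 0%, called in the whole table. At an unadjusted p under 0.05 the count was also 0 of 9, where 4.44% of all genes (498) passed. For all 9 genes the breeds overlapped, while 0.178% of all genes showed no overlap. DESeq2 called 1 gene of the table, CILP, which is not a clock gene and is named because the call was seen. Fitted fold changes were above 0 for 7 of the 9 genes and below 0 for 2, with a median log2 fold change of 0.07, and above 0 for 49.7% of all genes, whose median was also near 0.

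NR1D2 had the smallest p of the set. Its mean was 55.4 ± 8.52 FPKM in Laiwu, against 43.9 ± 10.9 FPKM in Yorkshire (SD, n = 6 each). The log2 fold change, Laiwu minus Yorkshire, was 0.31 ± 0.17 (SE; 95% interval -0.05 to 0.67; edgeR adjusted p = 0.912, unadjusted 0.0868). It was 0.21 without Yorkshire 5 and 0.44 without Yorkshire 2. The mean of CRY1 was 3.75 ± 0.484 FPKM in Laiwu, against 3.28 ± 0.852 FPKM in Yorkshire, with a log2 fold change of 0.19 ± 0.14 (interval -0.11 to 0.49; edgeR adjusted p = 0.912). That of CRY1 was 0.12 without Yorkshire 2 and 0.26 without Yorkshire 4. PER1 stood at 47.5 ± 19.6 FPKM in Laiwu, against 39.5 ± 14.1 FPKM in Yorkshire, with a log2 fold change of 0.24 ± 0.30 (interval -0.40 to 0.88; edgeR adjusted p = 0.921). That of PER1 was 0.05 without Laiwu 6 and 0.40 without Yorkshire 6.

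The other 6 genes had no fold change whose sign held under every alternative. Log2 fold changes were 0.04 ± 0.22 for CRY2 (interval -0.44 to 0.51), 0.000764 ± 0.24 for NR1D1 (-0.51 to 0.51), 0.07 ± 0.26 for CLOCK (-0.49 to 0.63) and -0.10 ± 0.21 for BHLHE40 (-0.54 to 0.34). PER2 and DBP, whose log2 CPM varied most, were the least constrained, at 0.26 ± 0.59 (interval -1.03 to 1.56) and -0.02 ± 0.55 (interval -1.22 to 1.18). Their SEs compare with a median of 0.163 over all genes tested, so a difference in either direction of the size of those intervals was not excluded by these data. Adjusted p by edgeR ran from 0.961 to 0.999 for these 6 genes.

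**Figure D2:**
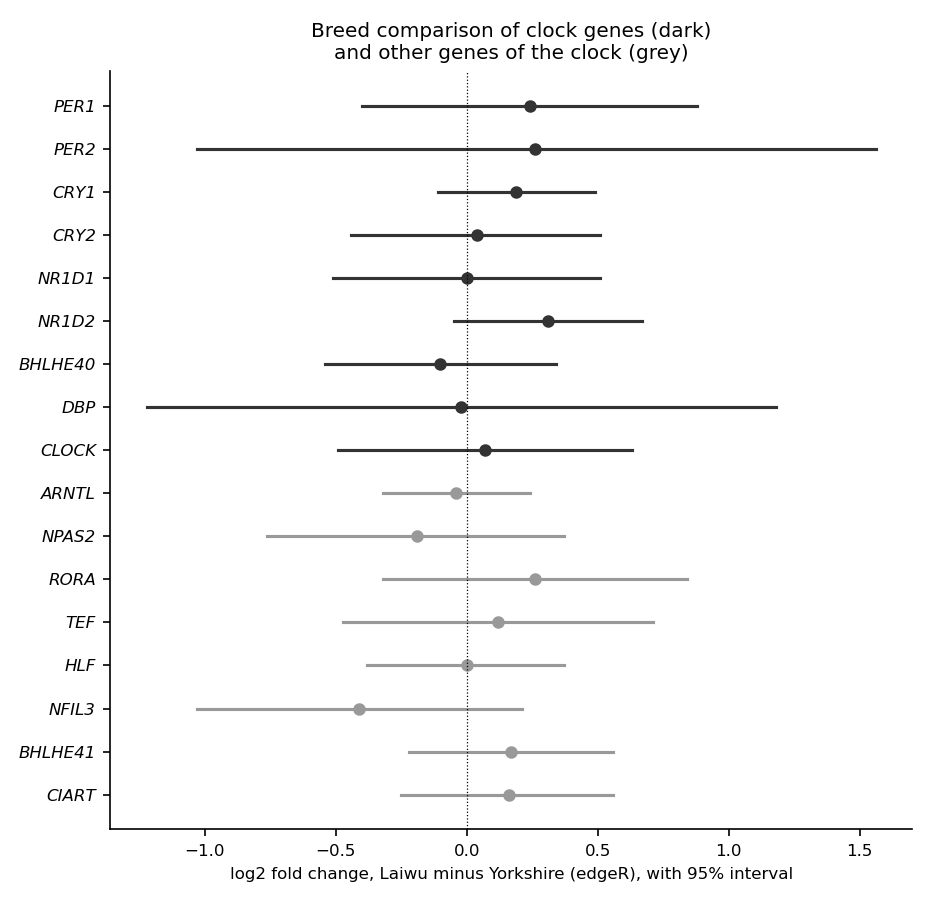
Log2 fold change of Laiwu minus Yorkshire by edgeR (horizontal axis), with the 95% interval as a line, for the 9 clock genes (dark) and 8 further genes of the clock (grey). Every interval includes 0, and those of PER2 (-1.03 to 1.56) and DBP (-1.22 to 1.18) are the widest among the dark genes.

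The second question was how the clock genes vary among libraries of the same breed. PER2 and DBP were among the most variable genes of this muscle, and CRY1 and NR1D2 were ordinary. The SD of log2 CPM (counts scaled to the library total after TMM adjustment) within breeds was 1.21 for PER2 and 1.15 for DBP, which is above 98.3% and 98.0% of the 11205 genes tested. PER1 and CLOCK followed, at 0.58 (above 87.9%) and 0.57 (above 87.0%), and then NR1D1 at 0.45, CRY2 at 0.42, BHLHE40 at 0.38, NR1D2 at 0.31 and CRY1 at 0.24 (above 37.2%). The median over all genes was 0.29. The spread was present in both breeds, with SDs of 1.0 in Laiwu and 1.39 in Yorkshire for PER2, and of 1.11 in Laiwu and 1.19 in Yorkshire for DBP. For CLOCK the SD was 0.29 in Laiwu and 0.75 in Yorkshire, whose value contains Yorkshire 5. The ratio of the highest to the lowest library in FPKM was 11 for PER2 and 7.42 for DBP, against 1.98 for CRY1.

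**Figure D3:**
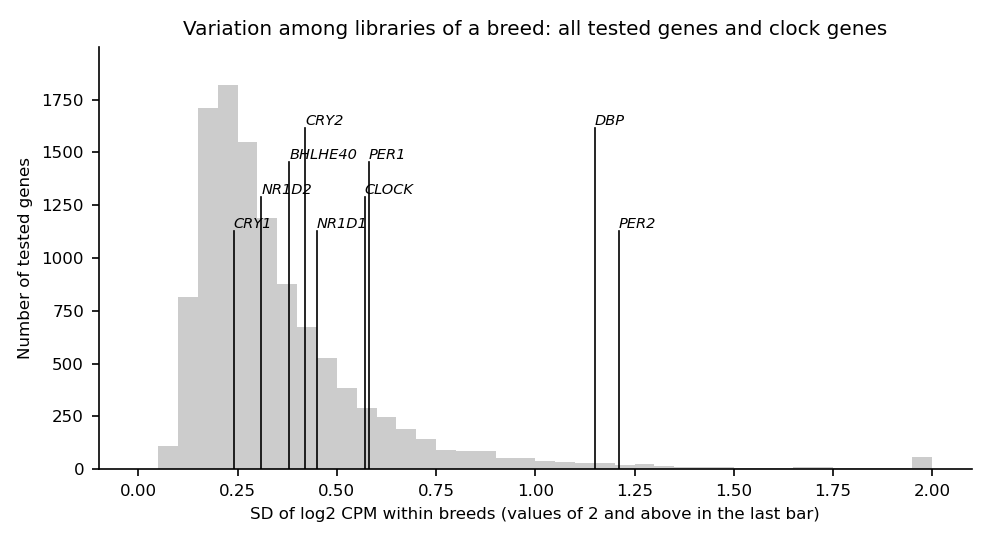
Number of tested genes (vertical axis) by SD of log2 CPM within breeds (horizontal axis), with vertical lines at the 9 clock genes, whose heights carry no meaning. DBP at 1.15 and PER2 at 1.21 stand in the right tail, while CRY1 at 0.24 lies near the middle of all genes, whose median was 0.29.

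The third question was which clock genes vary together. After the breed means were removed, PER2 varied together with DBP and NR1D2, and PER1 varied together with CRY2. Of 36 pairs, 4 passed a two-sided permutation test within breeds (100000 draws, Benjamini-Hochberg adjusted p under 0.05 over the 36 pairs), and all 4 correlations were positive. By Spearman's rho 5 pairs passed, namely those 4 and NR1D1 with DBP. The count by Pearson's r was 2 without Yorkshire 4 and 6 without Yorkshire 5. All pairs share the same 12 libraries, with their depth and composition. Over the tested genes, libraries were also compared by a mean chi-square per gene, which is lower for libraries more alike. It was 32.79 for Laiwu 2 with Yorkshire 4, 38.82 for Laiwu 4 with Yorkshire 2 and 50.32 for Laiwu 1 with Yorkshire 6. For Laiwu 5 with Yorkshire 3 it was 79.21, and the highest was 575.49, for Laiwu 3 with Yorkshire 5. The part of this likeness in the related pairs was not tested. Correlations of the size of those 4 were not limited to clock genes. Among the 11204 other tested genes ranked by r, DBP was at place 4 for PER2, and PER2 at place 1 for DBP. NR1D2 was at place 71 for PER2 and 292 for DBP, while PER2 and DBP were at places 19 and 293 for NR1D2. CRY2 was at place 44 for PER1, and PER1 at place 20 for CRY2. The share of all gene pairs with such an r was not measured.

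PER2 and DBP had the closest relation, with a Pearson's r of 0.96 (permutation p = 1e-05, the smallest the draws can give; adjusted p = 0.00036) and a Spearman's rho of 0.951 (permutation p = 3e-05, adjusted p = 0.00108). The same 4 libraries, Laiwu 3, Laiwu 5, Yorkshire 3 and Yorkshire 5, were the lowest for both genes. The summed level of the 5 slow fibre markers was 583 FPKM in Laiwu 4 and 768 FPKM in Yorkshire 2, where PER2 was highest, and 1072.4 to 2293.0 FPKM in those 4 low libraries. It was 351 FPKM, the lowest, in Laiwu 1 and 1111.8 FPKM in Laiwu 6, where PER2 was at 1.76 and 3.98 FPKM. In Laiwu 2, Yorkshire 1 and Yorkshire 4 it was 1430.3, 1330.3 and 1407.9 FPKM, with PER2 at 2.44, 2.68 and 2.63 FPKM. Each of the 5 markers had an r with PER2 between -0.491 and -0.42, and the part of slow fibres in the pattern was not tested. Without Yorkshire 3 and Yorkshire 5, the libraries farthest from the median of PER2, r of PER2 and DBP was 0.954 (permutation p = 0.00022). Within breeds r was 0.97 in Laiwu (exact permutation p = 0.00278, n = 6) and 0.967 in Yorkshire (exact permutation p = 0.00139, n = 6, the smallest possible), and it stayed between 0.947 and 0.973 when any single library was left out.

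PER2 and NR1D2 followed, with r = 0.90 (permutation p = 0.0003, adjusted p = 0.0054) and rho = 0.937 (permutation p = 0.00038, adjusted p = 0.00342). Within breeds r was 0.789 in Laiwu and 0.955 in Yorkshire, and without Yorkshire 5 it was 0.868 (permutation test, adjusted p = 0.0228). Without both Yorkshire 3 and Yorkshire 5, r was 0.775 (permutation p = 0.00749, adjusted p = 0.0764), so the call rests in part on those libraries. NR1D2 and DBP had r = 0.792 (permutation p = 0.00289, adjusted p = 0.026) and rho = 0.902 (permutation p = 0.00028, adjusted p = 0.00342). That call was lost when any of Laiwu 4, 5 or 6 or Yorkshire 1, 2, 4 or 6 was left out, with r between 0.771 and 0.808 and adjusted permutation p between 0.0566 and 0.0851. It was also lost on log2(FPKM + 0.1), without TMM and without centring on breed means, where r was 0.727, 0.726 and 0.684 (adjusted permutation p = 0.0963, 0.0976 and 0.0817). Within breeds r for NR1D2 and DBP was 0.692 in Laiwu and 0.886 in Yorkshire. Without Yorkshire 2 and Yorkshire 5, the farthest libraries for NR1D2, r was 0.828 (permutation p = 0.00849, adjusted p = 0.0764).

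PER1 and CRY2 formed the other pair, with r = 0.846 (permutation p = 0.00105, adjusted p = 0.0126) and rho = 0.895 (permutation p = 0.00036, adjusted p = 0.00342). Laiwu 1, Laiwu 6 and Yorkshire 6 were the 3 highest libraries for both genes, and Laiwu 2 and Yorkshire 4 the 2 lowest. Within breeds r was 0.80 in Laiwu and 0.895 in Yorkshire. Without Yorkshire 4 it was 0.812 (permutation test, adjusted p = 0.0755), without Yorkshire 6 it was 0.826 (adjusted p = 0.0526), and without Laiwu 2 and Yorkshire 4, the farthest for PER1, it was 0.771 (permutation p = 0.0199, adjusted p = 0.143). For PER1 with PER2, r was -0.252 (permutation p = 0.44, adjusted p = 0.645), and for PER1 with DBP it was -0.238 (permutation p = 0.472, adjusted p = 0.645). Between CRY1 and CRY2 r was -0.368 (permutation p = 0.273, adjusted p = 0.615).

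NR1D1 had r = 0.697 with PER2, 0.699 with NR1D2 and 0.666 with DBP, with adjusted permutation p of 0.117, 0.12 and 0.121. Its r with BHLHE40 was 0.789 (permutation p = 0.0143, adjusted p = 0.103) and -0.029 without Laiwu 4 and Yorkshire 2, so that relation rests on those 2 libraries. CLOCK had r = 0.602 with NR1D2 and 0.478 with PER2, and 0.174 and 0.085 without Yorkshire 5; the adjusted permutation p over all libraries was 0.337 and 0.475.

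**Figure D4:**
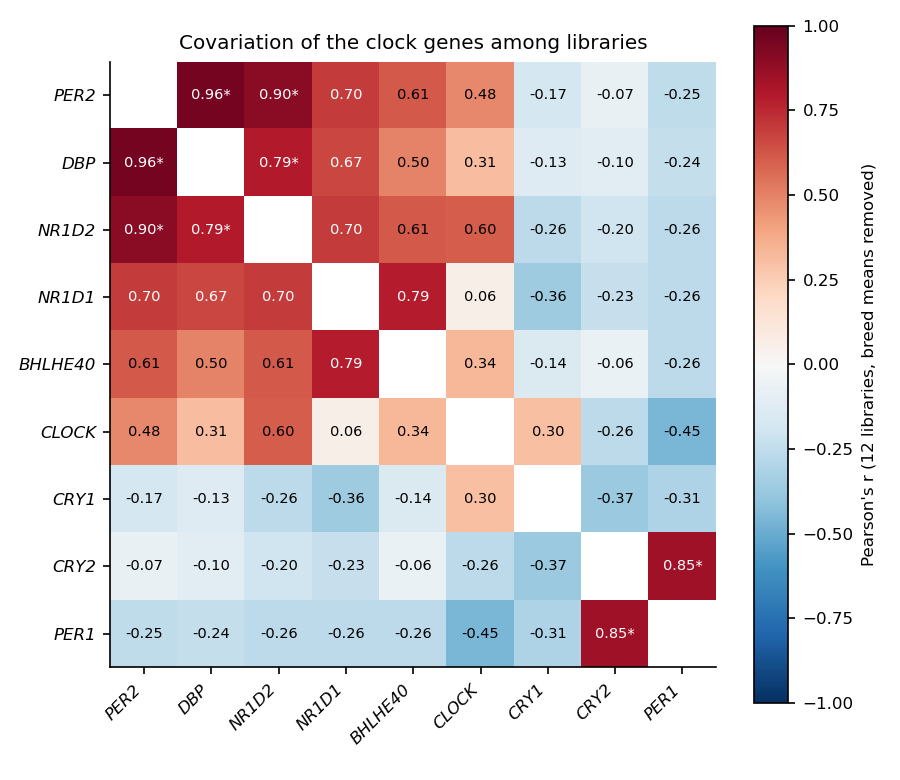
Pearson's r between each pair of the 9 clock genes over 12 libraries after removal of the breed means (colour and printed value, red positive, blue negative), with an asterisk where the adjusted permutation p was under 0.05. PER2, DBP and NR1D2 form a block with r of 0.96, 0.90 and 0.792, and PER1 and CRY2 form a separate pair at 0.846.

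The activating arm was set against the 9 genes next, since ARNTL is known to run opposite to several of them. ARNTL (chromosome 2, 45895289 to 45988570), the partner of CLOCK, had a mean of 4.73 ± 0.622 FPKM in Laiwu, against 4.81 ± 0.936 FPKM in Yorkshire (SD, n = 6 each), with a log2 fold change of -0.04 ± 0.13 (edgeR adjusted p = 0.977). It was highest in Yorkshire 3 and Laiwu 5, which were the 2 lowest libraries for DBP, and lowest in Yorkshire 4 and Laiwu 6. None of the 9 relations with ARNTL passed over the 12 libraries (1 at an unadjusted permutation p under 0.05, that with DBP). For DBP r was -0.63 (permutation p = 0.0426, adjusted p = 0.339), with -0.712 in Laiwu, -0.578 in Yorkshire and -0.264 without Laiwu 5 and Yorkshire 3. For PER2 r was -0.519 (permutation p = 0.113, adjusted p = 0.339), and for NR1D2 -0.397 (permutation p = 0.272, adjusted p = 0.489). Without the 2 libraries farthest from the median of each gene, 2 of the 9 relations passed, those of NR1D2 (r = -0.90, permutation p = 0.00129; Yorkshire 2 and 5 left out) and NR1D1 (r = -0.803, permutation p = 0.00998; Laiwu 4 and Yorkshire 2 left out). With any single library left out, r with ARNTL lay between -0.801 (without Yorkshire 2) and -0.502 (without Laiwu 5) for DBP. It lay between -0.747 (without Yorkshire 2) and -0.382 (without Yorkshire 3) for PER2, and between -0.771 and -0.28 for NR1D2, without the same libraries. The FPKM ratio of DBP to ARNTL was 0.239 in Laiwu 5 and 2.49 in Laiwu 6, the Laiwu extremes, against 0.227 in Yorkshire 3 and 2.31 in Yorkshire 4, the Yorkshire extremes.

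**Figure D5:**
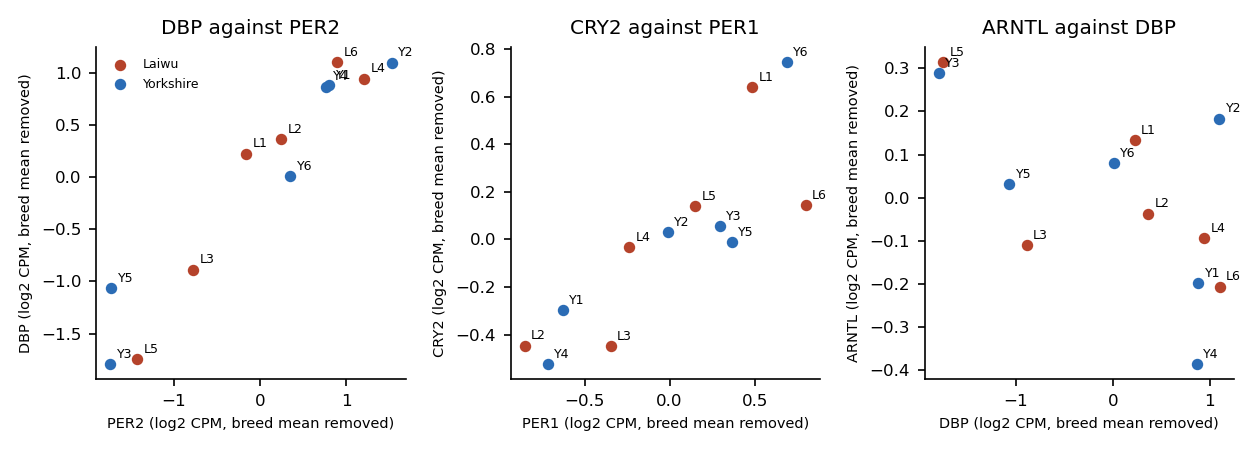
Log2 CPM with the breed mean removed for DBP against PER2, CRY2 against PER1 and ARNTL against DBP, with 1 point per library (L, Laiwu; Y, Yorkshire; numbered by replicate). The first pair lies close to a line (r = 0.96) and the second less so (r = 0.846), while the third falls (r = -0.63) with Y2 away from the rest.

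The other genes of the clock and its known outputs were not called between breeds either. Of 33 listed, 30 were in the table and 28 were tested, with 0 called higher and 0 lower, 13 above 0 and 15 below, and a median log2 fold change of -0.01. By group, the fold change was above 0 for 1 of 4 tested activators, 1 of 3 D-box factors, 3 of 3 further repressors, 2 of 6 kinases and ubiquitin ligases, 3 of 6 outputs and 3 of 6 glucocorticoid-responsive genes. RORA, a receptor that activates ARNTL, stood at 3.97 ± 1.33 FPKM in Laiwu, against 3.27 ± 1.07 FPKM in Yorkshire. NPAS2, the stand-in for CLOCK, had 0.95 ± 0.366 FPKM in Laiwu, against 1.08 ± 0.396 FPKM in Yorkshire. NFIL3, which represses through the D-box that DBP activates, stood at 5.50 ± 1.73 FPKM in Laiwu, against 7.30 ± 3.18 FPKM in Yorkshire, with a log2 fold change of -0.41 ± 0.29 (edgeR adjusted p = 0.912). The further repressors CIART and BHLHE41 were at 13 ± 3.53 and 5.69 ± 1.27 FPKM in Laiwu, against 11.4 ± 2.02 and 5.00 ± 1.37 FPKM in Yorkshire. WEE1, a cell cycle kinase named after its value was seen, was the single gene of this list with an unadjusted edgeR p under 0.05. Its log2 fold change was 0.36 ± 0.14 (edgeR unadjusted p 0.0252, adjusted p = 0.912).

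Several of these genes shared the 2 patterns. Likeness was measured as Pearson's r of breed-centred log2 CPM over the 12 libraries and is given as a description, with the rank among 11204 other tested genes. TEF, a PAR bZIP factor related to DBP, had r = 0.955 with PER2 (rank 6), 0.923 with DBP (rank 12) and 0.913 with NR1D2 (rank 11). TEF ranged over 11.5 to 24.5 FPKM in Laiwu, against 8.38 to 20.6 FPKM in Yorkshire, lowest in Yorkshire 5 and Yorkshire 3. PER2 itself was the gene most like DBP of all 11204. HLF, the third PAR bZIP factor, had r = -0.153 with PER2 and -0.089 with DBP. CIART, a repressor known to follow the clock closely, had r = 0.856 with PER1 (rank 36) and 0.764 with CRY2 (rank 83), and 0.154 with PER2. KLF10, a zinc finger factor listed as an output, was the gene most like CRY2 of all those tested (r = 0.944) and ranked 23 for PER1 (r = 0.872). KLF10 stood at 105 FPKM in Laiwu 1, 56.9 in Laiwu 6 and 96.6 in Yorkshire 6, and at 9.39 to 33.9 FPKM in the other 9 libraries.

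Among genes outside the clock, those most like PER1 were ART3, DTX4 and MXD4 (r = 0.937, 0.932 and 0.932), and those next to KLF10 for CRY2 included TMTC4 (0.933). CRY1 was most like RAP2B, CARS1 and BPNT1 (0.891, 0.886 and 0.852), a looser match than for the other genes. DBP was most like RCSD1 and PDE4C (0.942 and 0.937) after PER2, and NR1D2 had SPTBN1 (0.954) among its first 3. For PER2 the first 3 were IDs that the sources used here do not pair with a name, led by ENSSSCG00000028572 (r = 0.976). NR1D1 was most like NUP62 (0.916), and both NR1D1 and BHLHE40 had CXCL10, a chemokine induced by interferon, among their first 3 (0.906 and 0.939), beside TMEM106A (0.965) and the complement protease gene C1S (0.941) for BHLHE40. CLOCK had MED13 and AMOTL1 (both 0.979) among its first 3, in a ranking that includes the low value of Yorkshire 5.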

How the data were processed

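Poly(A) RNA of 12 muscle libraries, 6 per breed, was sequenced on an Illumina NovaSeq. Reads were filtered by FastQC and aligned to Sscrofa11.1 by HISAT2 2.2.1, per the design text. StringTie 1.3.4d, cutadapt 1.9, edgeR and DESeq2 appear in the submitters' processing notes with no step assigned. For annotation release, counter and strand setting, the sources used here name nothing. Each gene of the deposited table has, per the file headers, 1 raw count and 1 FPKM value for every library. No label says whether the numbered libraries are separate animals, so a p-value covers only the spread among these 12 samples, which may be technical.

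The test took the 11205 of 23271 genes whose mean reached 0.5 FPKM over all 12 libraries, and all 9 clock genes passed. The breeds were compared on the deposited counts with edgeR 4.0.16 (TMM, robust quasi-likelihood, no covariate, R 4.3.3), tested on simulated data beforehand; limma 3.58.1 on log2(FPKM + 1) and DESeq2 1.42.0 were alternatives. Standard errors came from the F statistic, and 95% intervals from the t distribution with the fit's degrees of freedom. Relations used log2 CPM (prior count 1) centred on breed means, and a permutation p of 1e-05 is the smallest possible. Gene length is count over FPKM. Counts limit precision: 3 counts equal 0.0446 to 0.0546 CPM, counting error only. A gene name table gave symbols to 130 of 8541 unnamed IDs, and ARNTL also appears there as BMAL1. The genes named were the members, fixed clock genes, any gene called and, for each member, the 3 genes most like it; others are said to be chosen after their values were seen. A further gene of that rule is not reported here. The members and lists were chosen with earlier results of these data known. Numbered libraries were checked for pairing: the deviations of same-numbered libraries correlated at -0.241 to 0.377, over 0.1 in 3 of 6 pairs. No steady pairing by number was seen. Some libraries of different numbers were alike across breeds, as given above for Laiwu 2 with Yorkshire 4, Laiwu 4 with Yorkshire 2 and Laiwu 1 with Yorkshire 6. The correlations of deviations cannot show whether same-numbered libraries were collected or handled together. Promoter motifs were planned and not analysed here.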

Additional observations from a re-analysis of the deposited data

Results flagged for a closer look

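Among 36 sets of 6 libraries examined for a single library far from the rest (18 named genes in each breed), 3 had a gap to the nearest library above 0.625 of the whole range, where chance gives about 1 in 20. BHLHE40 in Laiwu was highest in Laiwu 4, at 70.2 FPKM against 40.4 FPKM in the next library. NR1D1 in Laiwu was also highest in Laiwu 4, at 35.8 FPKM against 23.5 FPKM. Laiwu 4 had the highest macrophage marker sum of all libraries, 34.9 FPKM, but the markers differed. C1QA and C1QC had r = 0.769 and 0.786 with BHLHE40, against 0.264 for CSF1R, 0.245 for CD68 and -0.235 for CD163. CSF1R, CD68 and CD163 were highest in Yorkshire 3. The part of macrophages in the BHLHE40 or NR1D1 value was not tested. NPAS2 in Laiwu was highest in Laiwu 5, at 1.66 FPKM against 0.954 FPKM, the library in which DBP was lowest.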

How the results depend on the processing

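For the 9 clock genes, 165 of 189 recomputed fold changes kept their sign, and no adjusted p was under 0.499. The other 24, in 6 genes, turned. NR1D1 was -0.00261 by DESeq2 and -0.00327 with no filter, and DBP was 0.00205 by library size without TMM, 0.03 by limma on log2(FPKM + 1), 0.04 with a pseudocount of 0.1 and 0.01 with the replicate block. With 1 library left out, the range was -0.12 to 0.22 for CRY2, -0.03 to 0.62 for PER2, -0.19 to 0.21 for NR1D1, -0.26 to 0.19 for DBP, -0.11 to 0.16 for CLOCK and -0.30 to 0.06 for BHLHE40. DESeq2 called 1 gene of the table and every other setting 0, with 284 to 656 at an unadjusted p under 0.05 when 1 library was left out. The replicate block called 0 genes and had 433 at an unadjusted p under 0.05; 2 of 12 libraries correlated best with their own number.

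The number of related pairs was 4. It was 1 without the 2 libraries farthest from the median of each pair's first-listed gene, so that count may depend on list order. In Laiwu alone and in Yorkshire alone it was 0, with a smallest adjusted permutation p of 0.1 in Laiwu and 0.05 in Yorkshire. With 6 libraries the smallest exact permutation p is 0.00139, from 720 orders. After adjustment over 36 pairs a lone pair could therefore not fall under 0.05, so the counts of 0 within breeds decide little. The number of related pairs was 3 on log2(FPKM + 0.1), without TMM and without centring on breed means, and NR1D2 with DBP lost its call in each (r = 0.727, 0.726 and 0.684; adjusted permutation p 0.0963, 0.0976 and 0.0817). It ran from 2 without Yorkshire 4 to 6 without Yorkshire 5, and was 6 with each library's gene length trend removed, an alternative chosen after the data were seen. PER2 with DBP and PER2 with NR1D2 passed with any single library left out. The number of relations with ARNTL was 2 without the 2 libraries farthest for each clock gene, those of NR1D1 (r = -0.803) and NR1D2 (r = -0.90). It was 0 under the other alternatives, and the cause was not tested. As to depth, DBP and PER2 had at least 160 and 187 counts in every library.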

Other observations

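Some genes stood at the opposite end of the ranking from PER2 and DBP; they were picked out of the fixed lists after their values were seen, so their correlations are given as descriptions with no test. GSK3B, a kinase known to phosphorylate clock proteins, had r = -0.912 with DBP and -0.874 with PER2, the rank from the bottom being 54 and 133 among 11204 genes. Its highest levels were 7.75 FPKM (Laiwu 5) and 10.4 FPKM (Yorkshire 3), against 4.89 to 6.86 FPKM elsewhere. NPAS2 had r = -0.741 with DBP and -0.73 with PER2, and reached 1.66 FPKM in Laiwu 5, 1.58 in Yorkshire 3 and 1.55 in Yorkshire 5, against 0.619 to 0.966 FPKM in the other 9 libraries.

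The glucocorticoid-responsive genes differed in their likeness to the clock genes. CEBPD, a transcription factor of the acute phase response, had r = -0.822 with PER2 and reached 16.3 FPKM in Laiwu 5, 36.2 in Yorkshire 3 and 27.0 in Yorkshire 5, against 3.24 to 10.1 FPKM in the other 9 libraries. KLF9 had r = -0.809 with both PER2 and DBP, and 0.648 with PER1. Of the other 5 genes of that list, CEBPD had r = 0.546 with PER1, FKBP5 0.499, ZBTB16 0.406, TSC22D3 0.026 and SGK1 -0.75, while with PER2 FKBP5 had -0.463, ZBTB16 -0.17, TSC22D3 0.18 and SGK1 0.45. Laiwu 5, Yorkshire 3 and Yorkshire 5, in which PER2 and DBP were lowest, came from both breeds, and nothing in the labels sets them apart from the rest.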
